A study of Mus musculus with 16 samples.

Results

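Cytochrome P450 enzymes of families 1 to 3 were compared across wild-type and glucocorticoid receptor knockout mouse livers. The members were all genes whose name on the array was Cyp1, Cyp2 or Cyp3 followed by a letter, without the Cyp2b genes. These were 39 of 27962 gene names, measured with 58 probes, and the probe with the brightest mean signal over all arrays stood for each gene. The rule used names and brightness only, not the differences between groups. They fell into 13 subfamilies: 2 Cyp1a genes, 1 Cyp1b gene, 3 Cyp2a, 11 Cyp2c, 5 Cyp2d, 5 Cyp2j and 6 Cyp3a genes, and 1 gene each of Cyp2e, Cyp2f, Cyp2g, Cyp2r, Cyp2s and Cyp2u.

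P450 enzymes are heme proteins of the endoplasmic reticulum that insert an oxygen atom into drugs, pollutants, steroids, bile acids and fatty acids, taking electrons from P450 reductase. Hepatocytes make most of the body's P450 protein, and many family 1 to 3 genes are induced through ligand-activated receptors: AhR for Cyp1 genes, and CAR and PXR for many Cyp2c and Cyp3a genes. The glucocorticoid receptor, encoded by Nr3c1, is a hormone-bound transcription factor that dexamethasone, a synthetic glucocorticoid, activates. At high doses dexamethasone is also known as a ligand of mouse PXR.

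RNA from livers of male C57BL/6 mice aged 3 months was measured on 16 single-colour Agilent arrays of 60-base probes, 4 for each of 4 groups. The groups were wild type without treatment, wild type with dexamethasone, liver knockout of the receptor without treatment, and the same knockout with dexamethasone. How much dexamethasone was given, by which route and for how long, which part of the gene was deleted and how the deletion was limited to liver are not stated in the labels. The untreated state is called vehicle in the treatment protocol, and the titles of both knockout groups carry the letters PBS. No label says outright that each array was a separate mouse, so p-values measure the spread between these samples, which may be partly technical. In bulk liver, fewer cells of a type and less RNA per cell cannot be told apart.

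Levels are log2 signals relative to the 75th percentile of the same array, and differences are log2 differences of group means. A gene passed the test at an adjusted p under 0.05 in a limma fit to 18598 genes. All 39 members could be tested, 36 were well above background on all 16 arrays and none was saturated. The level of Nr3c1 was 2.19 to 2.59 in untreated and 1.99 to 2.34 in treated wild type, against 0.31 to 0.62 and -0.04 to 0.52 in the knockout groups, which did not overlap with wild type. The 75th percentile of the raw signal was 502.7 to 662.6 on 14 arrays, 383.7 on array 4 of untreated wild type and 295.8 on array 1 of untreated knockout. The latter correlated with its group at a mean of 0.963, against 0.975 to 0.98 for the other arrays of that group, and held the group's lowest value for 19 of the 39 members (27.6% of all genes). No slide held more than 1 group, and the slide's effect and the group's cannot be told apart.

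Probes of 3 members that passed are shown with the positions that the files give on the mm7 build; exon and UTR annotation of that build was not used here. The Cyp2u1 probe, from the member that passed in the most comparisons, lies at chr3:131134341-131134400 (- strand). The Cyp2e1 probe, from the 1 of 7 tested members of the cells around the central vein that passed a test, lies at chr7:137190949-137191008 (+ strand). Cyp2g1 is shown by both of its probes because they gave different signals: probe A_51_P137452 at chr7:23718352-23718411, of which the first 30 bases are printed, carried the measured signal, while probe A_52_P481346 at chr7:23711924-23711983 was well above background on 0 of 16 arrays. Bases are lower case and read 5′ to 3′.
Cyp2u1: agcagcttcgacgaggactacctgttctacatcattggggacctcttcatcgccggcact
Cyp2e1: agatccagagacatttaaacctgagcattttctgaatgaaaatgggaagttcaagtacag
Cyp2g1 (A_51_P137452): gtcagcttacataatctttgtctttgccct
Cyp2g1 (A_52_P481346): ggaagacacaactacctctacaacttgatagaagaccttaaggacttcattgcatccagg

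Members of a subfamily are close paralogs in gene clusters, so a probe can bind RNA of a neighbour. The 11 Cyp2c probes lay on chromosome 19, the 6 Cyp3a probes on chromosome 5, the 5 Cyp2d probes on chromosome 15 and the 5 Cyp2j probes on chromosome 4. Searching all probes for exact shared runs of at least 20 bases found 1 pair of chosen probes, those of Cyp2a4 and Cyp2a5. The search compared probes with probes, and binding of a probe to the transcript of a paralog was not tested. The 30-base stretches below show the shared run of 28 bases in capitals.
Cyp2a4 (bases 31 to 60): tcGTAGACTTGCAGAGGATATTTCAAAGGT
Cyp2a5 (bases 9 to 38): gaGTAGACTTGCAGAGGATATTTCAAAGGT
Counted from the 5′ end of the Cyp2a4 probe, the overlap differed before that run at T30A, T31G and C32A, with the Cyp2a4 base first. Values of these paralogs, and of Cyp3a41 and Cyp3a44, whose probes the files place next to each other on chromosome 5, are therefore uncertain as to the gene.

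With dexamethasone in wild-type livers, Cyp2u1 and Cyp2g1 fell while Cyp1b1 and Cyp2c70 rose. These 4 of 39 members (10.3%) passed the test, against 11.9% of all genes, so the share was close to that of the array as a whole. The 2 that rose were 5.13% of the members, against 5.21% of all genes, and the 2 that fell were set against 6.69%. The median difference of the members was -0.17, beside -0.03 over all genes. Groups did not overlap for 5 members (12.8%), against 22.2% of all genes, the fifth being Cyp2d13. Without untreated knockout array 1, which enters this fit through the shared spread, 7 members passed, with Cyp2c66, Cyp3a13 and Cyp2d13 added.

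Cyp2u1, which hydroxylates long-chain fatty acids, had the smallest p-values of the members in the comparisons where it passed. On arrays 1 to 4, Cyp2u1 was at 0.81, 0.88, 0.65 and 0.83 in untreated wild type and at -0.47, 0.24, -0.22 and -0.19 in treated wild type. Untreated knockout arrays were at 1.47, 1.58, 0.89 and 0.95, and treated ones at 1.48, 1.37, 1.46 and 1.12. All 4 treated wild-type arrays lay below all other arrays. In wild type Cyp2u1 fell by 0.95 (SE 0.18), or 1.93-fold, with an adjusted p of 0.00397. In the knockout the difference was 0.13 (95% confidence interval -0.25 to 0.52). The difference between these responses, the interaction, was 1.08 (SE 0.25, adjusted p = 0.0257), and Cyp2u1 was the 1 of 39 members to pass this test (2.56%, against 4.55% of all genes); without untreated knockout array 1 the count was 3. The interaction call was lost in 7 of 27 alternatives, with 0.85 and an adjusted p of 0.142 under normexp background correction, and adjusted p-values of 0.0507 to 0.0585 in the other 6, including those without untreated wild-type array 2, treated wild-type array 1 or 3, or treated knockout array 2 or 3.

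Cyp2g1, an enzyme known mainly from the olfactory mucosa, had the largest difference of the members by log2 value. The 4 untreated wild-type arrays read -0.93, -0.67, -2.17 and -1.70 for Cyp2g1, and the treated ones read -5.97, -4.23, -3.55 and -2.88. Knockout arrays read -0.53, -0.02, -1.14 and 0.27 without dexamethasone and -2.19, -0.23, -0.54 and -1.07 with it. The treated wild-type arrays were all lower than every other array, and 3 of the 4 were well above background. Cyp2g1 fell by 2.79 (SE 0.59) in wild type, or 6.90-fold (adjusted p = 0.0078). The size depended on the background correction, since the difference was -1.54 with normexp. In the knockout the difference was -0.66 (interval -1.92 to 0.61), and the interaction of 2.13 (SE 0.84) did not pass the test (adjusted p = 0.196). The signal rests on the first of the probe pair shown above. The other probe was well above background on no array, so whether the signal comes from Cyp2g1 RNA is uncertain.

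Cyp2c70, which makes muricholic acids, the main hydroxylated bile acids of mice, was among the members that rose. Levels of Cyp2c70 on arrays 1 to 4 were 7.77, 7.08, 7.28 and 7.80 in untreated and 8.32, 8.50, 8.82 and 7.85 in treated wild type. The knockout levels were 6.60, 7.39, 6.94 and 7.13 without and 7.05, 7.30, 6.55 and 7.39 with dexamethasone. The wild-type groups were separated by a narrow gap, 7.80 against 7.85, and the knockout groups overlapped. Cyp2c70 rose by 0.89 (SE 0.25) in wild type, or 1.85-fold (adjusted p = 0.0311), and the difference in the knockout was 0.06 (interval -0.48 to 0.59). The interaction was -0.83 (SE 0.35, adjusted p = 0.241). The wild-type call was lost in 7 of 28 alternatives, among them without untreated wild-type array 2 (0.76, adjusted p = 0.109) or 3 (0.82, 0.0802), without treated wild-type array 1 (0.91, 0.0685), 2 (0.85, 0.0726) or 3 (0.74, 0.0968), and with the replicate number as a block (0.89, 0.0553).

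Cyp1b1, which hydroxylates estrogens and polycyclic hydrocarbons, was dim. On arrays 1 to 4, Cyp1b1 was at -4.59, -4.79, -3.99 and -4.79 in untreated wild type and at -3.37, -3.55, -3.64 and -2.50 in treated wild type. Untreated knockout arrays were at -3.76, -4.06, -3.93 and -4.63, and treated ones at -3.43, -3.62, -3.30 and -2.90. Untreated and treated arrays did not overlap in either genotype, but only 2 of the 4 untreated wild-type arrays were well above background. Cyp1b1 rose by 1.28 (SE 0.27, adjusted p = 0.00766) in wild type, and the difference in the knockout was 0.78 (SE 0.27, adjusted p = 0.136). With normexp the wild-type difference was 0.32 (adjusted p = 0.546). The interaction was -0.49 (interval -1.31 to 0.32). Its other probe was not bright enough to be tested.

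**Figure D1:**
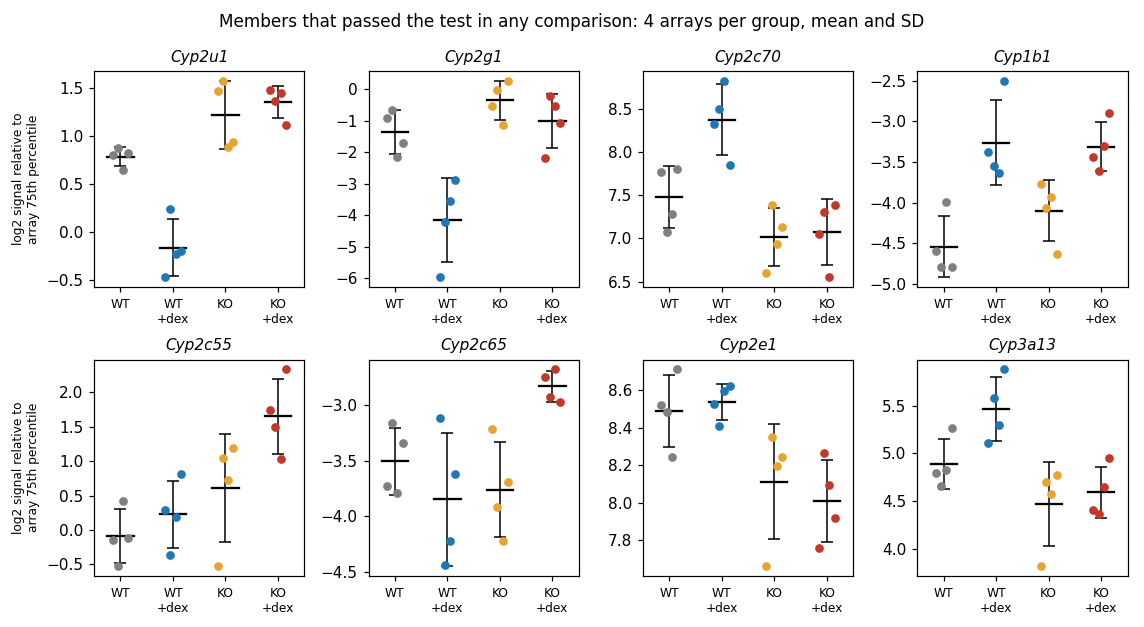
Levels of the 8 members that passed the test in any comparison, as log2 signal relative to the array's 75th percentile, by group (WT, wild type; KO, receptor knockout; +dex, dexamethasone). Points are the 4 arrays of a group, the wide line is the mean and the bar is the SD; each panel has its own vertical scale. The treated wild-type arrays of Cyp2u1 and Cyp2g1 sit below all others, and those of Cyp2c70 sit above all others.

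The promoters of the 2 members that rose are shown beside these responses. They are the 250 bases upstream of the RefSeq start on GRCm38.p6, for Cyp2c70 at chr19:40187287-40187536 and for Cyp1b1 at chr17:79715062-79715311, both on the minus strand. Capitals mark the reverse complement of the AhR core GCGTG, at positions -76 to -72 relative to the start of Cyp1b1; no motif searched was found in the Cyp2c70 window.
Cyp2c70: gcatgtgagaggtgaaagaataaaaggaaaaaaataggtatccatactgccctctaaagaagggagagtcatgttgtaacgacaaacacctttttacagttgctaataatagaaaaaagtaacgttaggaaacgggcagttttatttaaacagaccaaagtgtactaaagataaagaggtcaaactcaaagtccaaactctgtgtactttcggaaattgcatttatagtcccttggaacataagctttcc
Cyp1b1: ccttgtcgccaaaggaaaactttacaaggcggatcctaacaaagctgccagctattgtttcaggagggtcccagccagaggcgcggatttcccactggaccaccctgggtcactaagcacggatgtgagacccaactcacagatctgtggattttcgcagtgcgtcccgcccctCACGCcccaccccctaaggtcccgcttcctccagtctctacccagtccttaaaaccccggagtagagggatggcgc

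Promoter windows from 250 bases before to 50 after the start were matched for 33 members (36 windows) and searched on both strands. The sequence AGAACA, 1 arm of the palindromic glucocorticoid receptor site, was found in 11 windows (30.6%), from 10 members, against 19% of 32851 promoters. These were Cyp2c38, Cyp2c39, Cyp2d10, Cyp2d26, Cyp2f2, Cyp2j11, Cyp2j6, Cyp3a11, Cyp3a16 and Cyp3a25. None of the 10 passed in any comparison, but most of the members without the sequence did not pass either. Whether the sequence goes with passing was not tested. The full site, AGAACA and TGTTCT with 3 bases between them, which contains that arm, was in 0 member windows and 0.00913% of all. The AhR core GCGTG was in 6 windows (16.7%), from Cyp1a1, Cyp1b1, Cyp2j9, Cyp2j13 and Cyp2r1, against 32.4% of all. AGTTCA as a pair in 1 direction, with 4 bases between, as CAR and PXR bind, was in 0 member windows and 0.0122% of all. Cyp2u1, Cyp2g1, Cyp2c54, Cyp2c44, Cyp2d13 and Cyp2d22 had no matched window.

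None of the 6 Cyp3a genes, the subfamily that metabolises the widest range of drugs and steroids, passed the test with dexamethasone, although all 6 differences in wild type were positive. Over all genes 8684 of 18598 were positive there. Cyp3a13, with a wild-type difference of 0.58 (SE 0.23, adjusted p = 0.119), passed in 3 alternatives: with the replicate number as a block (adjusted p = 0.0364), without untreated knockout array 1 (0.58, adjusted p = 0.0451) and without both arrays of low raw signal, named above (0.70, adjusted p = 0.0192). The 6 differences ran from 0.29 to 0.69 with a median of 0.54, and all 6 stayed positive under quantile normalization, scaling on bright probes, normexp, and without those 2 arrays. The 4 untreated wild-type arrays read 6.93, 6.33, 7.16 and 6.32 for Cyp3a11, and the treated ones read 7.77, 7.01, 7.26 and 7.46. Knockout arrays read 5.08, 6.67, 6.55 and 6.92 without dexamethasone and 6.81, 6.97, 6.69 and 7.95 with it. The groups of Cyp3a11, the main PXR-induced enzyme of mouse liver, overlapped in both genotypes, and its untreated knockout array 1 at 5.08 lay far below the others. The difference was 0.69 in wild type (interval -0.11 to 1.49, adjusted p = 0.261) and 0.80 in the knockout (interval 0.01 to 1.60, adjusted p = 0.295), with an interaction of 0.12 (interval -1.01 to 1.25). In the knockout 5 of 6 Cyp3a differences were positive, with a median of 0.33, beside 9401 of 18598 positive over all genes.

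The same arrays were high for 5 of the 6 Cyp3a genes, so the 6 differences may not be separate readings. Whether these probes bind RNA of a shared paralog was not tested. In treated wild type, arrays 1 and 4 were the highest pair for all but Cyp3a13, whose highest pair was arrays 2 and 4. For Cyp3a16 they were at 6.73 and 6.39, against 5.86 and 6.07 for arrays 2 and 3, and the untreated arrays lay between 5.43 and 5.91. The wild-type difference of Cyp3a16, a form of fetal liver, was 0.56 (adjusted p = 0.102). That of Cyp3a44, a form better known from female liver, was 0.51 (adjusted p = 0.195), and that of Cyp3a41 was 0.29 (adjusted p = 0.251). Cyp3a25 had 0.29 (adjusted p = 0.617) with untreated wild-type array 2 at 4.13 against 5.52 to 5.96 on the other 3 arrays.

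The 3 Cyp2a genes had negative differences with dexamethasone in wild type, from -0.95 to -0.27, and none passed. Levels of Cyp2a5 on arrays 1 to 4 were 8.75, 8.82, 8.14 and 8.86 in untreated and 7.30, 7.34, 7.78 and 8.82 in treated wild type. The knockout levels were 8.64, 8.98, 7.71 and 9.25 without and 7.69, 8.49, 8.63 and 8.76 with dexamethasone. In treated wild type, 3 arrays of Cyp2a5, the coumarin hydroxylase, lay below every untreated wild-type array, while array 4 was level with the untreated ones. The difference was -0.83 (interval -1.63 to -0.04, adjusted p = 0.169), and without treated wild-type array 4 it was -1.17 (adjusted p = 0.045). Cyp2a4, a testosterone hydroxylase, had the same array apart, at 7.53 against 5.83 to 6.19, and a difference of -0.95 (interval -1.95 to 0.05, adjusted p = 0.212). Treated wild-type array 4 held its group's highest value for 25 of the 39 members and 30.3% of all genes.

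Cyp2d13, which RefSeq lists as a transcribed pseudogene, was just outside the threshold. On arrays 1 to 4, Cyp2d13 was at 3.35, 3.61, 3.05 and 3.53 in untreated wild type and at 2.18, 2.30, 2.54 and 2.57 in treated wild type. Untreated knockout arrays were at 4.47, 2.81, 3.51 and 2.63, and treated ones at 2.99, 3.45, 3.11 and 2.79. The wild-type groups did not overlap, and the untreated knockout arrays were widely spread. The wild-type difference was -0.99 (SE 0.31, adjusted p = 0.0511), and it passed without untreated knockout array 1 (adjusted p = 0.00478), among other alternatives. The other 4 Cyp2d genes, among them Cyp2d9, a male-biased testosterone hydroxylase, had wild-type differences from -0.37 to -0.10, none of which passed.

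The Cyp2c genes other than Cyp2c70, a subfamily that oxidises arachidonic acid and many drugs, had wild-type differences of -0.54 to 0.72 and none passed. The lowest was Cyp2c44 (interval -1.13 to 0.04) and the highest Cyp2c66 (interval 0.17 to 1.27, adjusted p = 0.0861), which passed without untreated wild-type array 4 (0.96, adjusted p = 0.0163). No gene of the Cyp1a, Cyp2e, Cyp2f, Cyp2j, Cyp2r or Cyp2s subfamilies passed with dexamethasone. The 5 Cyp2j genes, epoxygenases of arachidonic acid, had differences of -0.43 to 0.07 in wild type. Cyp1a1 (0.47, interval -0.13 to 1.06) and Cyp1a2 (-0.25, interval -0.69 to 0.18), the classical AhR targets, did not pass, nor did Cyp2e1, which oxidises ethanol (0.05, interval -0.30 to 0.39). Cyp2f2, which activates naphthalene, had -0.06 (interval -0.38 to 0.25). The vitamin D 25-hydroxylase Cyp2r1 had -0.56 (interval -1.22 to 0.10), and Cyp2s1 had 0.28 (interval -0.50 to 1.06).

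**Figure D2:**
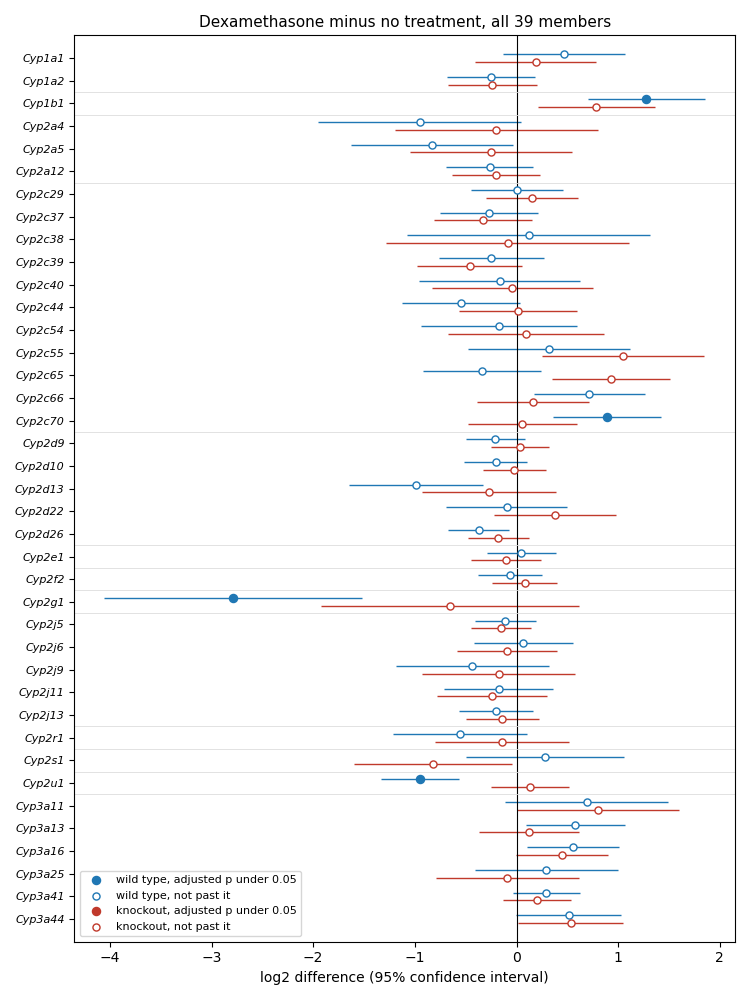
Log2 difference between dexamethasone-treated and untreated livers for all 39 members, with 95% confidence intervals, in wild type (blue) and knockout (red); filled points passed the test. The 4 filled points are Cyp1b1, Cyp2c70, Cyp2g1 and Cyp2u1 in wild type, and all 6 Cyp3a genes lie to the right of 0 in wild type.

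In knockout livers no member passed the test with dexamethasone (0 of 39 in limma, against 3.55% of all genes), while 6 members (15.4%, against 16.7% of all genes) had an unadjusted p under 0.05. The median difference was -0.04, beside 0.00 over all genes. Cyp2c65, a Cyp2c gene known from the gut, and Cyp1b1 were the 2 members whose groups did not overlap (5.13%, against 9.61% of all genes). The 4 untreated wild-type arrays read -3.72, -3.16, -3.79 and -3.34 for Cyp2c65, and the treated ones read -3.11, -4.44, -4.23 and -3.61. Knockout arrays read -3.21, -3.92, -4.22 and -3.69 without dexamethasone and -2.74, -2.92, -2.67 and -2.97 with it. The treated knockout arrays were the highest of all, and the treated wild-type arrays were spread over both sides of the untreated ones. The knockout difference of Cyp2c65 was 0.93 (SE 0.27, adjusted p = 0.0748) and its interaction 1.28 (SE 0.38, adjusted p = 0.0764). Both passed without untreated knockout array 1, at 1.12 (adjusted p = 0.0302) and 1.46 (adjusted p = 0.0275), and without treated wild-type array 1, at 0.93 (adjusted p = 0.0438) and 1.52 (adjusted p = 0.0283). The 2 genotypes' comparisons share no arrays in their means, but the fit takes 1 spread per gene from all 16 arrays.

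Without dexamethasone, loss of the receptor moved no member past the threshold (0 of 39 in limma, against 2.84% of all genes), and 9 members (23.1%, against 19.4% of all genes) had an unadjusted p under 0.05. Of the 39 differences 29 were negative, beside 8252 of 18598 over all genes. Without untreated knockout array 1 only 20 of the 39 were. Groups did not overlap for 4 members (10.3%, against 11.6% of all genes): Cyp2c29, Cyp2c54, Cyp2d22 and Cyp2u1. Cyp2c29, a CAR-responsive enzyme of the hepatocytes around the central vein, was at 7.42, 7.26, 7.32 and 7.38 in untreated wild type and 6.01, 6.86, 6.69 and 7.07 in untreated knockout. Its difference was -0.69 (SE 0.21, adjusted p = 0.0931), and it passed with the replicate number as a block (adjusted p = 0.0411). Cyp2c54 had -1.03 (SE 0.36, adjusted p = 0.134), and Cyp2d22 had -0.83 (SE 0.28, adjusted p = 0.125), with untreated knockout array 1 the lowest array of both. Cyp2u1 had 0.43 (SE 0.18, adjusted p = 0.2).

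With dexamethasone, 7 of the 39 members (17.9%) differed between knockout and wild type, against 22.3% of all genes. Cyp2g1, Cyp2u1, Cyp2c55 and Cyp2c65 were higher in the knockout, and Cyp2c70, Cyp3a13 and Cyp2e1 were lower, where 14% of all genes were higher and 8.3% lower. Groups did not overlap for 8 members (20.5%, against 31.6% of all genes), these 7 and Cyp2d13. All of these 7 but Cyp2c65 had a difference of the same sign without dexamethasone, though none passed there. Among them were Cyp2g1 (1.01), Cyp2c55 (0.70), Cyp3a13 (-0.42) and Cyp2e1 (-0.38). Of the 7 only Cyp2u1 passed the interaction, which was -0.15 for Cyp2e1. The treated comparison of genotypes shares its treated wild-type arrays with the comparison of dexamethasone in wild type. Cyp2u1 was 1.52 higher (SE 0.18, 2.86-fold, adjusted p = 8.9e-05) and Cyp2g1 3.14 higher (SE 0.59, 8.85-fold, adjusted p = 0.00207), or 1.81 higher with normexp, while Cyp2c70 was lower, with -1.30 (SE 0.25, 2.46-fold, adjusted p = 0.00234).

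Cyp2c55, an inducible arachidonic acid hydroxylase, had its highest mean in the treated knockout. Levels of Cyp2c55 on arrays 1 to 4 were -0.15, -0.53, 0.43 and -0.11 in untreated and 0.30, -0.37, 0.18 and 0.82 in treated wild type. The knockout levels were -0.53, 1.05, 0.73 and 1.19 without and 1.75, 1.49, 1.03 and 2.34 with dexamethasone. The treated knockout arrays lay above all treated wild-type arrays, and the untreated knockout held array 1 far below the other 3. Cyp2c55 was 1.42 higher (SE 0.37, 2.68-fold, adjusted p = 0.0145). Cyp2c65 was 1.02 higher (SE 0.27, 2.03-fold, adjusted p = 0.0154), a call lost without treated wild-type array 2 (adjusted p = 0.0503) and under normexp (0.70, adjusted p = 0.0657).

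Cyp3a13 was the 1 Cyp3a gene that differed. On arrays 1 to 4, Cyp3a13 was at 4.80, 4.66, 4.83 and 5.26 in untreated wild type and at 5.11, 5.58, 5.30 and 5.88 in treated wild type. Untreated knockout arrays were at 3.82, 4.70, 4.58 and 4.77, and treated ones at 4.40, 4.36, 4.64 and 4.95. Treated wild-type arrays were above all treated knockout arrays. The difference was -0.88 (SE 0.23, 1.84-fold, adjusted p = 0.0143), and the other 5 Cyp3a genes lay between -0.27 and 0.11. Cyp2e1 was lower by a smaller amount. The 4 untreated wild-type arrays read 8.52, 8.48, 8.24 and 8.71 for Cyp2e1, and the treated ones read 8.52, 8.41, 8.60 and 8.62. Knockout arrays read 7.66, 8.35, 8.20 and 8.25 without dexamethasone and 7.76, 8.27, 8.10 and 7.92 with it. All treated wild-type arrays were above all treated knockout arrays. The difference was -0.53 (SE 0.16, 1.44-fold, adjusted p = 0.0293). The call was lost in 8 of 28 alternatives, with adjusted p-values up to 0.0866, including without treated wild-type array 1, 3 or 4 or treated knockout array 1, 3 or 4.

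**Figure D3:**
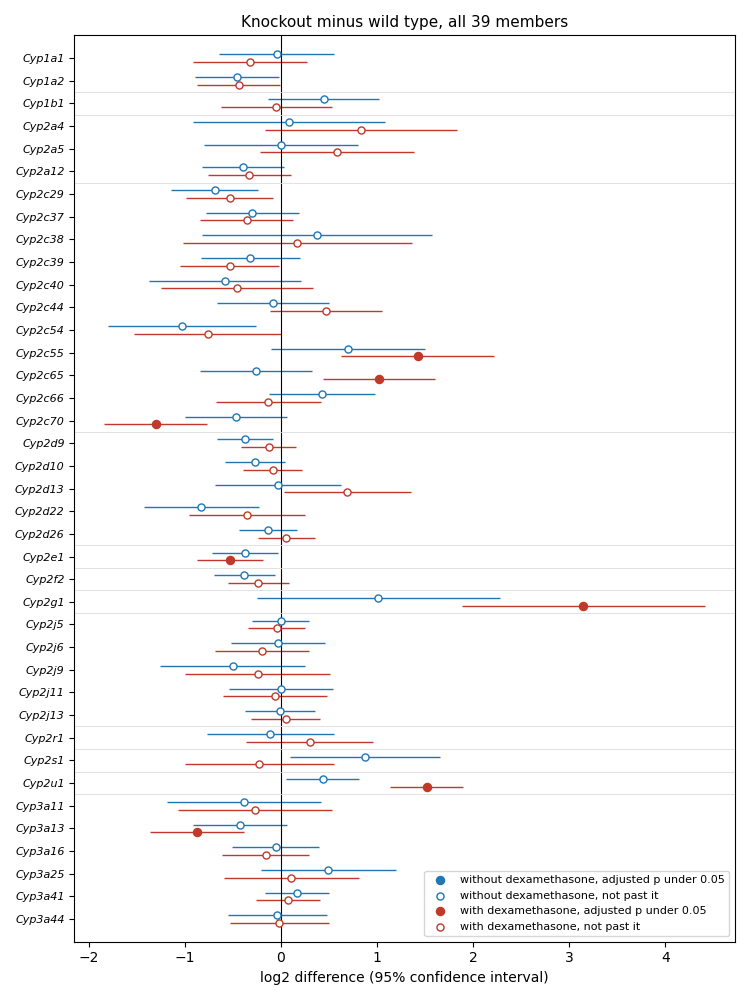
Log2 difference between knockout and wild-type livers for all 39 members, with 95% confidence intervals, without dexamethasone (blue) and with it (red); filled points passed the test. No blue point is filled, and 7 red ones are, from Cyp2c70 at -1.30 to Cyp2g1 at 3.14.

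**Figure D4:**
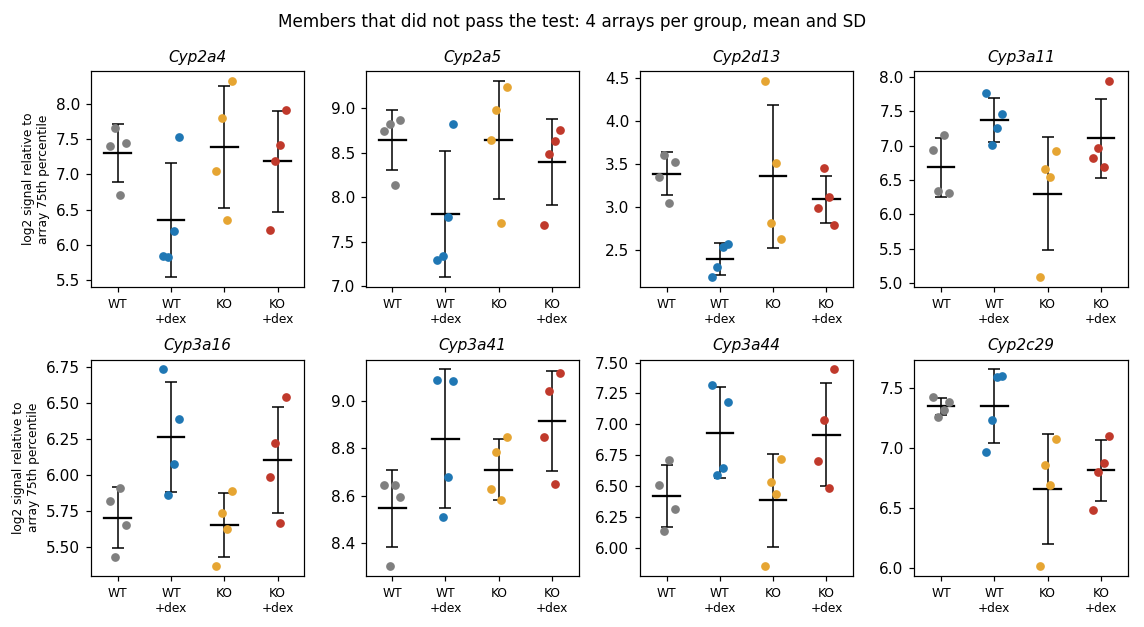
Levels of 8 members that passed no test, on the scale of the plot of the members that passed, with the 4 arrays, mean and SD of each group and a separate vertical scale per panel. Treated wild-type array 4 stands apart in Cyp2a4 and Cyp2a5, and untreated knockout array 1 lies low in Cyp3a11 and Cyp2c29.

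No member that passed has a second probe that could be tested. For the 14 members with at least 2 tested probes, probes had the same sign for 10 with dexamethasone in wild type, 9 in knockout, and 10 in each comparison of genotypes, and the median spread between probes was 0.13, 0.24, 0.39 without and 0.32 with dexamethasone. Cyp2a5 had a second probe at -0.93 beside the chosen -0.83 in wild type. Cyp3a44 had a second probe at 1.09 beside the chosen 0.51, and at -0.10 beside 0.53 in the knockout.

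Of the 4 left-out Cyp2b genes, which include the classical CAR target Cyp2b10, 3 rose with dexamethasone in wild type. Cyp2b10 rose by 4.22, Cyp2b13 by 4.03 and Cyp2b9 by 3.78. The same 3 were lower in the treated knockout than in treated wild type. None of the 4 passed with dexamethasone in the knockout. In the interaction 0 of 4 passed in limma (3 at an unadjusted p under 0.05), with a median of -3.40 beside 0.04 over all genes. The difference in share between these and the members was not tested.

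Genes that supply or regulate P450 enzymes were described from lists, whose counts stand beside the shares of all genes that passed. These were 11.9% with dexamethasone in wild type, 3.55% in the knockout and 4.55% for the interaction. In the comparisons of genotypes they were 2.84% without and 22.3% with dexamethasone. Of 6 tested redox partners, which include the P450 reductase Por and cytochrome b5 forms, 1 passed in any comparison, Cyb5b, 0.73 higher in the treated knockout. Of 12 genes of heme synthesis and breakdown, Hmox2, a heme oxygenase, rose by 0.69 with dexamethasone in wild type and Alad, an early enzyme of heme synthesis, fell by 0.47. In the treated knockout Hmox2 was lower (-1.17), while Alad (0.68), Ppox (0.57) and Hmox1 (0.82) were higher. Hmox2 was also lower in the untreated knockout (-0.55) and passed the interaction (-0.62). Of 15 transcription factors of P450 genes, Hnf4a rose (0.59) in wild type, and Nr1i3, which encodes CAR, and Ppara fell (-0.94 and -0.88). Stat5b fell in the knockout (-0.62), and 6 factors differed in the treated knockout, among them Cebpb (-1.37), Hnf4a (-1.15), Nfe2l2 (0.98) and Ahr (-0.99).

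Of 10 CAR and PXR targets outside these families, Gadd45b rose by 5.69 in wild type and passed the interaction (-4.92). In the treated knockout 3 differed: Gadd45b (-4.91), Abcc2 (-0.44) and Abcb1a, which was higher there and not well above background on any treated wild-type array. Neither of 2 tested AhR targets passed in any comparison. Of 23 tested genes of other P450 families, 0 passed with dexamethasone in wild type in limma (3 at an unadjusted p under 0.05). Cyp27b1 (0.82) and Cyp46a1 (-1.02) passed in the knockout, and Cyp46a1 (-1.57) passed the interaction. Between genotypes, 3 passed without dexamethasone (2.84% of all genes): Cyp39a1 (-2.17), Cyp46a1 (1.09) and Cyp4f13 (-0.69). With dexamethasone 3 passed (22.3% of all genes): Cyp39a1 (-2.30), Cyp27a1 (-1.62) and Cyp27b1 (0.80). The 7 tested members of the cells around the central vein had a median of -0.38 without and -0.44 with dexamethasone in the comparison of genotypes, beside 0.04 and 0.09 over all genes. Untreated knockout array 1 was the lowest of its group for Cyp2e1, Cyp2c29, Cyp2c37, Cyp2c54 and Cyp3a11, and the median without it is not given. Cyp2f2, which is not on this list, also had -0.38 without dexamethasone. Without dexamethasone 0 of the 7 passed (2.84% of all genes), and with it 1 passed (22.3% of all genes). Of 11 genes of liver zonation outside the families, 7 differed in the treated knockout, 2 higher (14% of all genes) and 5 lower (8.3% of all genes), with a median of -0.56 beside 0.09. Cdh1 (1.69) and Lgr5 (1.37) were higher, and Sds (-1.68), Pck1 (-1.58), Cps1 (-1.28), Axin2 (-0.99) and Slc1a2 (-0.89) were lower. Lgr5 fell with dexamethasone in both genotypes (-2.21 in wild type, -1.53 in the knockout). Cdh1 fell in wild type (-0.96) and Axin2 in the knockout (-1.08), and both passed the interaction (1.45 and -1.18). Cps1 was also lower in the untreated knockout (-0.90). The list was not split by zone, so its median does not describe 1 zone.

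Some markers of 7 of the 9 cell types looked at moved with the groups. Of 6 hepatocyte markers, 4 were lower in the treated knockout than in treated wild type (8.3% of all genes): Tat, Cps1, Hnf4a and Apoa1. Cps1 and Apoa1 were also lower in the untreated knockout (0.801% of all genes). Tat (1.07) and Hnf4a (0.59) themselves rose with dexamethasone in wild type (5.21% of all genes). Ttr, of the same list, passed in no comparison and was at 4.52 to 5.20 on all arrays. The summed level of the 6 markers was 10.70 to 11.24 in untreated and 11.02 to 11.22 in treated wild type. In the knockout groups it was 10.16 to 10.67 without and 10.31 to 10.65 with dexamethasone. Of 6 tested B cell markers, 3 fell with dexamethasone in each genotype, and their summed level was -0.30 to -0.07 in untreated and -1.57 to -1.13 in treated wild type, and 0.02 to 1.33 and -0.98 to -0.57 in the knockout groups. The B cell factor Pax5, not well above background on any wild-type array, was higher in the knockout with and without dexamethasone, as was Cd79a with it. Of 7 sinusoidal endothelial markers Kdr, a receptor for VEGF, fell in both genotypes (-1.12 and -1.02), and their summed level was 4.80 to 5.31 in untreated and 4.31 to 4.65 in treated wild type, and 4.89 to 5.44 and 4.35 to 4.87 in the knockout groups. Of 9 T and NK cell markers, Cd3g fell in wild type (-0.77) and Cd3e in the knockout (-0.92), and in the treated knockout Cd3e was lower (-0.69) and Cd5 higher (0.94). The summed level of these markers was 0.87 to 1.09 in untreated and 0.53 to 0.97 in treated wild type, and 1.03 to 1.68 and 0.40 to 1.05 in the knockout groups. Of 3 tested neutrophil markers, S100a9 fell in wild type (-2.01) and Ltf was higher in the treated knockout (1.39). Their summed level was -0.64 to 1.29 and -2.17 to -0.66 in wild type and 0.12 to 2.11 and -1.35 to 1.00 in the knockout, without and with dexamethasone. Of 4 tested bile duct markers, Sox9 rose in wild type (1.36) and Krt7 was lower in the treated knockout (-0.88). The summed level of these was 3.43 to 4.37 in treated wild type and 3.90 to 6.06 in treated knockout. Of 3 tested erythroid markers, Alas2 was higher in the treated knockout (0.48), while the median of the 3 was -0.14. The summed erythroid level was 7.67 to 8.78 in treated wild type and 7.53 to 8.46 in treated knockout. None of 8 stellate cell or 8 Kupffer cell and macrophage markers passed in any comparison. The part of these cells in the P450 results was not tested.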

How the data were processed

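Per the file headers, the deposited files hold the processed signal of every spot, an intensity from which the array's background had been subtracted. Mean and local background signals, also deposited, are in the same unit of intensity. Per the submitters' processing notes, the software was Agilent Feature Extraction 9.5. Other deposited columns mark spots above background, saturated or outlying. The deposited series table differed from the processed signal by 0.

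Of 45018 spots per array, 1639 controls were left out and 2121 outlying spots (0.31%) were set to missing. Log2 processed signals were centred on each array's 75th percentile. Genes needed signal well above background on at least 3 of 4 arrays of a group. Limma 3.58.1 in R 4.3.3 fitted 4 group means to 16 arrays (12 residual degrees of freedom), with two-sided tests and Benjamini-Hochberg adjustment over 18598 genes. Wild type and knockout were each compared with and without dexamethasone, and the interaction was tested. The number of arrays limits the precision.

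The members, lists and tests were chosen with earlier results of these data known. Every member that passed is described in full. From the lists not every gene that passed is named, and those named are up to 4 in a comparison, by adjusted p. For the zonation list in the treated comparison of genotypes, every gene that passed is given. Members outside the threshold were picked for description after their values were seen. Replicate numbers were not used to pair the arrays in the main fit. Residuals of same-numbered arrays correlated at -0.188 to 0.348 (median 0.0755, 10 of 24 over 0.1). Arrays of different numbers were not compared, so these values cannot decide whether the numbers pair the arrays. Alternatives changed background, scaling, filters, probe choice, variance model, the replicate block and the arrays left out. The fit was tested on simulated data. Symbols matched RefSeq by accession for 36 members and by symbol for 3; Cyp2c44 is now Cyp2c23 and Cyp3a41 is Cyp3a41a. Promoters are from RefSeq. Figures used matplotlib 3.10.9 in Python 3.11.15.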

Additional observations from a re-analysis of the deposited data

Results flagged for a closer look

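Across 156 sets of 4 arrays (39 members in 4 groups), 7 had 1 array far from the other 3 by Dixon's test, and chance gives about 1 in 20. In untreated wild type, Cyp2a5 was at 8.14 on array 3 against 8.75 to 8.86, and Cyp3a41 at 8.30 on array 2 against 8.59 to 8.65. In treated wild type, Cyp2j6 was at 1.89 on array 2 against 2.69 to 2.75. In untreated knockout, Cyp2d22 was at 3.22 on array 1 against 4.67 to 4.84, Cyp2r1 at 0.14 on array 1 against 1.29 to 1.52, and Cyp2c44 at 6.05 on array 4 against 6.91 to 7.04. In treated knockout, Cyp2j11 was at -2.81 on array 2 against -3.55 to -3.44. The response of Cyp2u1 to dexamethasone differed between the genotypes by 1.08 on the log2 scale.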

How the results depend on the processing

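No call reversed its sign in any alternative. Members that passed with dexamethasone in wild type numbered 3 to 7 when each array was left out (7 without untreated knockout array 1) and 8 without both dim arrays, untreated wild-type array 4 and untreated knockout array 1, an alternative chosen after seeing the data. In the knockout 0 to 1 passed with an array left out, and 1 (Cyp2c65) with quantile normalization and without both arrays. For the interaction the count was 0 to 3 with an array left out, 0 with normexp and with no filter on dim probes, and 2 with quantile normalization and without both arrays. Without dexamethasone, knockout against wild type gave 1 with the mean of each gene's probes (Cyp2d22, -0.61). With the replicate number as a block, 1 member passed there (Cyp2c29, -0.69), 8 in the treated comparison of genotypes (Cyp2c29 was added), 4 with dexamethasone in wild type (Cyp2c70 was lost, adjusted p = 0.0553, and Cyp3a13 gained, adjusted p = 0.0364), 0 in the knockout and 1 for the interaction. In the treated comparison of genotypes 6 to 10 passed with an array left out, 10 without untreated knockout array 1 or both dim arrays. The calls of Cyp2c55, Cyp2c70 and Cyp3a13 in that comparison, and of Cyp2g1 and Cyp2u1 there and with dexamethasone in wild type, held in all 28 alternatives. Normexp moved the median of all genes to 0.17 in the treated comparison of genotypes, from 0.09. On simulated data a log2 change of 1 was recovered for 51% of changed genes with dexamethasone in wild type and 23.7% for the interaction, so smaller differences can be missed. The fit of only the groups compared was not run for the interaction. The causes of these shifts were not tested.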
